A study of Homo sapiens with 18 samples.

Results

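Untreated MOLM13 cells were set against untreated MV4-11 cells in RNA sequencing libraries, with 2 libraries per line, which are 4 of the 18 libraries of the series. MOLM13 and MV4-11 are human acute myeloid leukemia (AML) cell lines. MOLM13 carries the MLL-AF9 fusion and MV4-11 an MLL rearrangement, known as MLL-AF4, and both lines are known for an internal tandem duplication of the receptor kinase FLT3. MOLM13 grew in RPMI medium and MV4-11 in IMDM medium, each with 20% fetal bovine serum, and both were controls of a drug treatment that lasted 16 h. Each line is 1 established culture, and the medium differed along with the line, so line and medium cannot be told apart in any value given here. The genes compared were those of the autosomes, of which 13269 passed the filter on low counts, out of 14763 tested genes and 36708 autosomal gene entries in the count table.

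In both lines a gene fusion has joined the front of MLL, the histone methyltransferase encoded by KMT2A, to a partner protein that belongs to the machinery of transcript elongation. The fusion holds on to target genes through the scaffold protein Menin and keeps HOXA genes and their cofactor MEIS1 active, a program that normally fades as blood progenitors mature. The leukemias with these fusions are typically monocytic, and the features that separate them are the partner, the degree of myeloid maturation and the other lesions each line has gathered.

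The libraries held 21447285 and 23065882 counts in MOLM13 and 20730483 and 30090827 in MV4-11. Levels are given as CPM, counts per 1000000 counts of the library after TMM scaling. Over the 2 libraries of a line a count of 0 allows up to 3 counts, a floor that is 0.0709 CPM in MOLM13 and 0.0558 CPM in MV4-11 and covers counting error only. The MOLM13 libraries lay close together, with a biological coefficient of variation of 2.66%, against 13.2% for the MV4-11 pair. Mitochondrial transcripts took 4.36% and 4.83% of counts in MOLM13 and 10.28% and 5.60% in MV4-11, so the library labelled MV4-11 control 1 stood apart from the other 3. Its part in the results was not tested beyond repeating the counts without it. In a fit with 1 library left out, the spread came from the pair of the other line alone. Fewer differences passed without either MOLM13 library and more without either MV4-11 library. A difference lost or gained in this way does not single out the library left out. Nothing in the labels says that the MV4-11 libraries came from separate cultures, so the spread behind the p-values may be technical.

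Both lines had the RNA of myeloid blood cells. PTPRC, the CD45 phosphatase of all white cells, was at 91.6 and 95.5 CPM in MOLM13 and 171 and 179 CPM in MV4-11. SPI1, the PU.1 factor of the myeloid lineage, and CD33, a myeloid surface antigen, were found at like levels in the 4 libraries, between 361 and 414 CPM and between 125 and 143 CPM. Most markers of other cells on the lists did not pass the filter on low counts. Of 20 B and T lymphoid markers 7 were tested, with 1 higher in MOLM13 and 4 higher in MV4-11. The list summed to between 48.9 and 84.8 CPM in each library, most of it from NKG7. CD3D, a T cell marker, had 267 counts over the MOLM13 libraries and 0 in MV4-11, at least 113-fold higher in MOLM13. Of 20 erythroid and megakaryocyte markers 4 were tested (1 and 2 called), with sums between 28.3 and 35.6 CPM, and 13 were at 0 counts in all 4 libraries. Of 16 epithelial and stromal markers 5 were tested (1 and 2 called), with summed levels of 2.59 and 3.47 CPM in MOLM13 and 19.2 and 14.9 CPM in MV4-11, and EPCAM was not tested. Of 16 dendritic and mast markers 5 were tested (1 and 2 called, and 4 and 2 without MV4-11 control 1), with sums between 13.8 and 16.6 CPM. Segments of T cell receptor genes, which are on none of these lists, were found in both lines and are given with the runs of neighbouring genes. In bulk RNA, fewer cells of a type and less RNA per cell cannot be told apart.

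The lines differed over most of the genes measured. A gene was called where edgeR's quasi-likelihood test gave a Benjamini-Hochberg adjusted p below 0.05 over all genes tested and the log2 difference was at least 0.32 in size. By this rule 8854 of the 13269 autosomal genes were called, or 66.7%, of which 4361 were higher in MOLM13 (32.9%) and 4493 higher in MV4-11 (33.9%). Differences of at least 4-fold were less even, with 690 genes higher in MOLM13 (5.20%) and 1453 higher in MV4-11 (11.0%). The median log2 difference was -0.02 and the median absolute difference 0.67. Log2 differences are MOLM13 minus MV4-11 throughout, with their standard errors, so that positive values are higher in MOLM13. Scaling by library totals alone or by upper quartiles put the median at -0.16, so values near 0 depend on the scaling. With so many genes called, a list is read here against these shares, and its count says nothing where it lies near them.

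In the HOXA cluster HOXA9 and HOXA10 were present in both lines, and the wide differences lay on either side of them. HOXA9, the homeobox factor central to MLL-rearranged leukemia, stood at 34.8 and 36.5 CPM in MOLM13 and 52.1 and 45.8 CPM in MV4-11, a difference of -0.45 ± 0.10 (adjusted p = 0.00444) that was not called without MOLM13 control 1 (-0.39 ± 0.17). HOXA10, its neighbour and partner in keeping progenitors immature, was not called, at 35.1 and 35 CPM against 20.8 and 30.8 CPM. Its difference was 0.43, and 0.76 without MV4-11 control 2. HOXA5 was at 2.84 and 3.11 CPM in MOLM13 and at 0 counts in both MV4-11 libraries, at least 53.4-fold higher in MOLM13. HOXA7, at 2.54 and 3.33 CPM, and HOXA3, at 2.25 and 1.87 CPM, were also at 0 counts in MV4-11, at least 53-fold and 36.9-fold higher in MOLM13. At the other end, HOXA13 was at 12.8 and 11.1 CPM in MOLM13 against 0.665 and 0.915 CPM, and HOXA11 at 17.8 and 17.5 CPM against 1.19 and 1.89 CPM. No library of a line overlapped the other line at HOXA3, HOXA5, HOXA7, HOXA11 or HOXA13. Of the 8 tested HOXA genes, 5 were higher in MOLM13 and 1, HOXA9, in MV4-11, with a median of 3.67, also with genes at 0 counts held at their bound. Without the filter on low counts 8 of 11 were higher in MOLM13.

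The HOXB cluster went the other way. HOXB4, a regulator of blood stem cell self-renewal, was at 0 counts in both MOLM13 libraries and at 9.46 and 7.66 CPM in MV4-11, at least 118-fold higher in MV4-11. HOXB3 was likewise at 0 counts in MOLM13, at least 22.6-fold lower than the 1.28 and 1.8 CPM of MV4-11. HOXB7 was detected in every library, at 0.734 and 0.411 CPM against 1.81 and 2.2 CPM. All 3 tested HOXB genes were higher in MV4-11, with a median of -4.50 when the genes at 0 counts are held at their bound.

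Among the cofactors of the HOX proteins, MEIS1 was at 36.5 and 41.3 CPM in MOLM13 and 80.8 and 71.5 CPM in MV4-11, a difference of -0.97 ± 0.10 (adjusted p = 0.000145). Both MV4-11 libraries lay above both MOLM13 libraries. PBX3, which binds DNA with HOXA9 and MEIS1, was not called, at 93 and 92.2 CPM against 107 and 99.6 CPM. Of the 6 tested MEIS and PBX genes, 1 was higher in MOLM13 (MEIS2, 0.33 ± 0.10) and 3 in MV4-11 (MEIS1, PBX2 and PBX4). MEIS2, PBX2 and PBX4 lost their calls without MOLM13 control 1, at 0.38, -0.24 and -1.21.

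**Figure D1:**
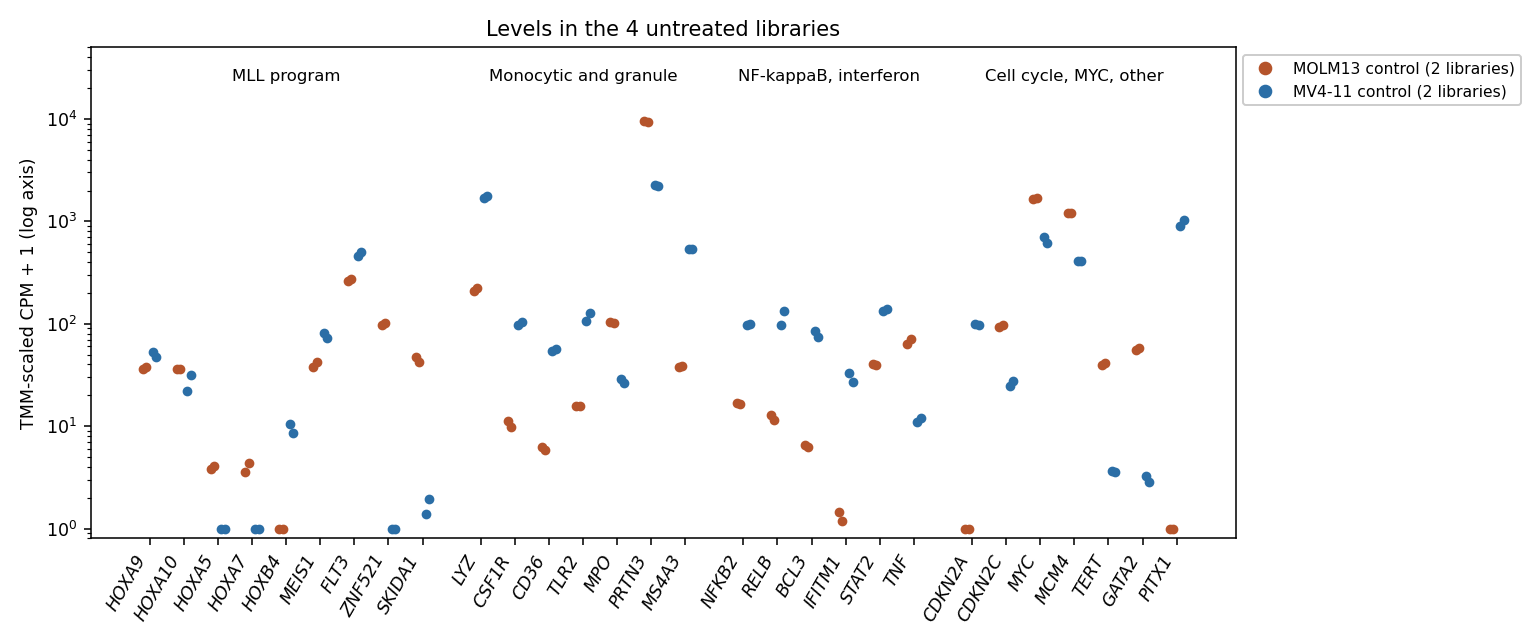
Levels of 29 genes in the 4 untreated libraries, as TMM-scaled CPM plus 1 on a log axis, with 1 point per library (MOLM13 in orange, MV4-11 in blue) and a point at 1 standing for 0 counts. HOXA5, HOXA7 and ZNF521 sat at 0 in MV4-11, HOXB4, CDKN2A and PITX1 at 0 in MOLM13, while HOXA9 and HOXA10 were present in both lines.

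Single MLL targets that the study named differed between the lines. The list was chosen by the study for these lines, so its direction is not independent evidence. Of 12 tested targets 3 were higher in MOLM13 and 4 in MV4-11, with a median of -0.19. Neither share exceeded that of all autosomal genes, 32.9% and 33.9%, so these counts say nothing of the list. The MV4-11 count rested on the scaling, at 6 with no scaling factors or upper quartiles and 7 with quantile normalization. CDK6, the kinase that drives progenitors past the G1 checkpoint, was at 229 and 233 CPM in MOLM13 and 514 and 588 CPM in MV4-11 (-1.26 ± 0.09). FLT3, the mutated receptor of both lines, was also higher in MV4-11, at 459 and 496 CPM against 258 and 270 CPM. LAMP5, a lysosomal membrane protein, went the other way with 916 and 909 CPM in MOLM13 against 418 and 394 CPM in MV4-11, as did BMI1, a Polycomb protein of self-renewal (1.07 ± 0.09). MEF2C, MYB, JMJD1C and TCF4 were not called, with TCF4 at 0.26, and at 0.41 without MV4-11 control 1.

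Of 16 tested genes bound by MLL fusions in other leukemias, 5 were higher in MOLM13 and 8 in MV4-11, with a median of -0.38. The widest gap was at ZNF521, a zinc finger factor of immature blood cells, at 95.3 and 99.8 CPM in MOLM13 and 0 counts in MV4-11, at least 1751-fold higher in MOLM13. SKIDA1 was at 46.3 and 41.6 CPM in MOLM13 and 0.38 and 0.946 CPM in MV4-11 (5.93 ± 0.24). CDKN2C, the p18 inhibitor of CDK4 and CDK6, was 1.91 ± 0.09 higher in MOLM13. On the MV4-11 side stood ZEB2, a repressor that shapes monocyte and dendritic fate, at 461 and 422 CPM against 151 and 155 CPM, and RUNX2 (-0.69 ± 0.10). In none of these did the libraries of the lines overlap, as at 86.3% of all autosomal genes.

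Single genes of the machinery that the fusions use also differed. MEN1, which encodes Menin, was at 138 and 144 CPM in MOLM13 and 69.7 and 66.8 CPM in MV4-11, a difference of 1.05 ± 0.08 (adjusted p = 2.8e-05). KMT2A itself was higher in MV4-11, at 96.8 and 108 CPM against 59.9 and 58.4 CPM. DOT1L, the methyltransferase recruited through the AF9 partner, was 0.98 ± 0.10 higher in MOLM13. MLLT3, the gene of AF9, was at 14 and 15.8 CPM in MOLM13 and 1.43 and 1.01 CPM in MV4-11, and AFF1, the gene of AF4, at 91.6 and 98.1 CPM against 116 and 135 CPM. These counts are per gene and do not separate fusion transcripts from those of the intact alleles, so the MLLT3 and AFF1 values mix both. AFF1 was not called without MOLM13 control 1 (-0.33 ± 0.18). Of the 16 tested genes of Menin, MLL and partners, 7 were higher in MOLM13 and 4 in MV4-11 (median 0.16, and 0.32 without MV4-11 control 1). Together these lay near the 66.7% called among all autosomal genes, so the count says nothing of the list. Of the 12 tested targets of BET and acetyltransferase drugs, 2 were higher in MOLM13 (BRD2, 0.56 ± 0.11, and the demethylase KDM1A, 0.93 ± 0.09) and 4 in MV4-11 (EP300, CREBBP, KAT6B and KAT7, between -0.34 and -0.42). These 4 lost their calls without MOLM13 control 1, at -0.30, -0.24, -0.20 and -0.42.

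Genes downstream of FLT3 and STAT5 were more often higher in MOLM13, although the receptor itself was not. Of 22 tested members 15 were higher in MOLM13 and 6 in MV4-11, with a median of 0.76. MYC was at 1633 and 1699 CPM in MOLM13 and 702 and 613 CPM in MV4-11 (1.34 ± 0.10), and the D-type cyclins CCND2 and CCND3 were 1.46 ± 0.08 and 1.07 ± 0.10 higher. Feedback inhibitors of the RAS pathway were among the widest gaps. SPRY1 was at 13.1 and 12.7 CPM in MOLM13 and 0.333 and 0.305 CPM in MV4-11 (5.32 ± 0.22). SPRED1 had 531 counts over the MOLM13 libraries against 2 in MV4-11, a 338-fold ratio with a 95% exact counting interval of 93 to 2794. DUSP6, the phosphatase that resets ERK, was instead higher in MV4-11, at 33.1 and 28.7 CPM against 7.39 and 7.17 CPM, as was PIM1, a kinase induced by STAT5 (-1.24 ± 0.12).

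Of 19 tested cytokine receptors 5 were higher in MOLM13 and 9 in MV4-11. CSF1R, the receptor for macrophage colony-stimulating factor, was at 10.2 and 8.77 CPM in MOLM13 and 95.2 and 103 CPM in MV4-11 (-3.39 ± 0.11). KIT, the stem cell factor receptor, was at 0 counts in MOLM13 and at 3.28 and 2.04 CPM in MV4-11, at least 35.7-fold higher there. IL6ST, the gp130 chain of the IL-6 receptor, was -4.33 ± 0.18 and IL1RAP, a leukemia stem cell antigen, -2.51 ± 0.11. On the MOLM13 side IL7R (1.47 ± 0.16) and IL6R (0.57 ± 0.09) were higher, and the libraries of the lines were apart at each of these genes.

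The myeloid maturation genes separated the lines by kind, with monocytic genes higher in MV4-11 and the early granule proteases higher in MOLM13. Of 35 tested monocyte and granulocyte genes 22 were higher in MV4-11 and 5 in MOLM13, with a median of -1.03. LYZ, the lysozyme of monocytes, was at 208 and 220 CPM in MOLM13 and 1697 and 1766 CPM in MV4-11 (-3.02 ± 0.09, adjusted p = 8.07e-07). CD36, a scavenger receptor, was at 5.28 and 4.84 CPM against 53.4 and 55.4 CPM, and TLR2, the sensor of bacterial lipoproteins, at 14.8 and 14.6 CPM against 105 and 125 CPM. The 2 lines did not overlap at any of them. CST3, a protease inhibitor secreted by monocytes, was -2.14 ± 0.08. CD14, the classical monocyte marker, was low in both lines, at 0.147 and 0.228 CPM against 0.57 and 0.732 CPM. The exceptions were VCAN, S100A9, ITGAM, TREM1 and LGALS3, of which 2 were called without MOLM13 control 2 and 3 without MOLM13 control 1. CD14 was not called without either of them (-1.48 and -2.11). VCAN, a proteoglycan that classical monocytes make, had 812 counts over the MOLM13 libraries against 1 in MV4-11, a 1032-fold ratio (185 to 40821).

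Primary granule genes, which are switched on in promyelocytes, were higher in MOLM13 for 9 of 15 tested members and higher in MV4-11 for 3, with a median of 0.87. PRTN3, proteinase 3, was at 9571 and 9235 CPM in MOLM13 and 2283 and 2233 CPM in MV4-11 (2.06 ± 0.10). MPO, myeloperoxidase, was at 102 and 100 CPM against 27.9 and 25.2 CPM, and ELANE, neutrophil elastase, at 1348 and 1308 CPM against 511 and 653 CPM. Both MOLM13 libraries exceeded both MV4-11 libraries at the 3 genes. MS4A3, a marker of granulocyte-monocyte progenitors, broke the pattern at 36.6 and 37.4 CPM in MOLM13 and 539 and 537 CPM in MV4-11 (-3.86 ± 0.09), with CFD (-0.98 ± 0.11) and SERPINB1 (-0.74 ± 0.07) on the same side. Of 13 secondary and tertiary granule genes, 1 was tested, the bactericidal protein BPI, which was 4.02 ± 0.36 higher in MOLM13.

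Of 25 tested myeloid transcription factors 7 were higher in MOLM13 and 11 in MV4-11. CEBPA, which sets the granulocyte-monocyte program, was at 354 and 347 CPM in MOLM13 and 113 and 175 CPM in MV4-11 (1.28 ± 0.18). CEBPB, its relative in stressed and monocytic cells, was at 23.4 and 23.1 CPM against 67.6 and 82.7 CPM, and IRF5, a factor of inflammatory macrophages, at 36.8 and 35.2 CPM against 119 and 136 CPM. SPI1, IRF8 and IKZF1 were not called.

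Stem and progenitor genes were more often higher in MOLM13, at 10 of 15 tested against 3, with a median of 0.69. DACH1 was at 129 and 136 CPM in MOLM13 and 0 counts in MV4-11, at least 2379-fold higher in MOLM13. GATA2, a factor of stem and mast cells, was at 53.9 and 57.2 CPM against 2.23 and 1.83 CPM (4.79 ± 0.13). EGFL7, a secreted factor and host of a microRNA, was the main exception at 1.71 and 1.55 CPM in MOLM13 and 42.3 and 46.5 CPM in MV4-11 (-4.76 ± 0.14). CD34, the surface marker of progenitors, did not pass the filter on low counts.

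Of 33 tested surface antigens of AML 7 were higher in MOLM13 and 14 in MV4-11, with a median of -0.56, which was -0.32 without MV4-11 control 1. CD276, the B7-H3 immune ligand, had 2 counts over the MOLM13 libraries and 1378 over those of MV4-11, a 542-fold ratio (150 to 4480). CLEC12A, a target of antibody therapy, was at 1.61 and 2.56 CPM against 19.1 and 13.2 CPM. CD38, an ectoenzyme of progenitors, was higher in MOLM13 at 14 and 15.6 CPM against 0.665 and 1.28 CPM, as was NCAM1, the adhesion molecule CD56, at 14.9 and 16.3 CPM against 0.428 and 0.305 CPM. Of 20 tested integrin and adhesion genes 6 were higher in MOLM13 and 7 in MV4-11, and ICAM1, the ligand of leukocyte integrins, was at 5.58 and 5.66 CPM in MOLM13 and 54.5 and 51.5 CPM in MV4-11.

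MHC class II genes leaned to MV4-11, and class I genes leaned less strongly to MOLM13. Of 11 tested MHC class II genes 8 were higher in MV4-11 and 1 in MOLM13, with a median of -0.75. Without MV4-11 control 1, 12 were tested, with 10 higher in MV4-11, 1 in MOLM13 and a median of -1.68, and the median was -1.55 and -1.49 without MOLM13 control 1 and 2 in turn. HLA-DRA, the DR alpha chain, was at 0.196 and 0.183 CPM in MOLM13 and 5.32 and 4.39 CPM in MV4-11 (-4.64 ± 0.33), and CIITA, the master regulator of the class, was not called. Of 20 tested class I genes 10 were higher in MOLM13 and 3 in MV4-11, with a median of 0.33, and the latter count was 1 without MOLM13 control 1, MOLM13 control 2 or MV4-11 control 1. HLA-C was at 891 and 863 CPM against 370 and 324 CPM, and ERAP2, a peptide-trimming enzyme, was 1.95 ± 0.20 higher in MOLM13. HLA-C lies on chromosome 6, where 50.1% of all tested genes were higher in MOLM13, with a median of 0.39. The share and median of the class I list lay near these. Counts of HLA genes are uncertain, since reads of near-identical and highly variable alleles can be lost or shared.

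The immune signalling genes leaned furthest to MV4-11. Of 34 tested interferon genes 29 were higher in MV4-11 and 1, the ISG15 protease USP18, in MOLM13, with a median of -1.51. USP18 was not called without MOLM13 control 1 (0.84 ± 0.34). IFITM1, a membrane barrier to viruses, was at 0.44 and 0.183 CPM in MOLM13 and 32.3 and 25.8 CPM in MV4-11 (-6.53 ± 0.28). STAT2, which carries the interferon signal to the nucleus, was at 39.1 and 38.9 CPM against 131 and 137 CPM, and IFIH1, the sensor of double-stranded RNA, at 6.85 and 7.08 CPM against 30.5 and 26.8 CPM. MX1, a GTPase that blocks viruses, was at 3.47 CPM in MV4-11 control 1 and 1.07 CPM in MV4-11 control 2, against 0.587 and 0.594 CPM in MOLM13, and OAS2, IFI6 and OAS1 were likewise higher in MV4-11 control 1, the library with the raised mitochondrial share. Without it MX1 and OAS1 were not called (-0.84 ± 0.49 and -1.11 ± 0.64), while 28 of 35 interferon genes were still higher in MV4-11 and 3 in MOLM13, with a median of -1.13. ISG15 was not called, at 12.8 and 10.7 CPM against 9.5 and 9.34 CPM.

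Of 20 tested TNF and NF-kappaB genes 15 were higher in MV4-11 and 2 in MOLM13, with a median of -2.48. RELB, a subunit of the noncanonical NF-kappaB pathway, was at 11.9 and 10.6 CPM in MOLM13 and 96.9 and 133 CPM in MV4-11 (-3.35 ± 0.17). NFKB2, its partner subunit, was at 15.8 and 15.5 CPM against 96.2 and 98 CPM, and BCL3, a nuclear cofactor of the pathway, at 5.53 and 5.25 CPM against 84.8 and 73.4 CPM. The libraries of the lines were far apart at these 3 genes. NFKBIA, the inhibitor that NF-kappaB itself induces, was -2.49 ± 0.09. TNF itself ran against its list, at 62.2 and 70.4 CPM in MOLM13 and 9.98 and 10.9 CPM in MV4-11 (2.66 ± 0.11), and the other exception was ZFP36, which destabilises TNF mRNA (0.96 ± 0.09).

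**Figure D2:**
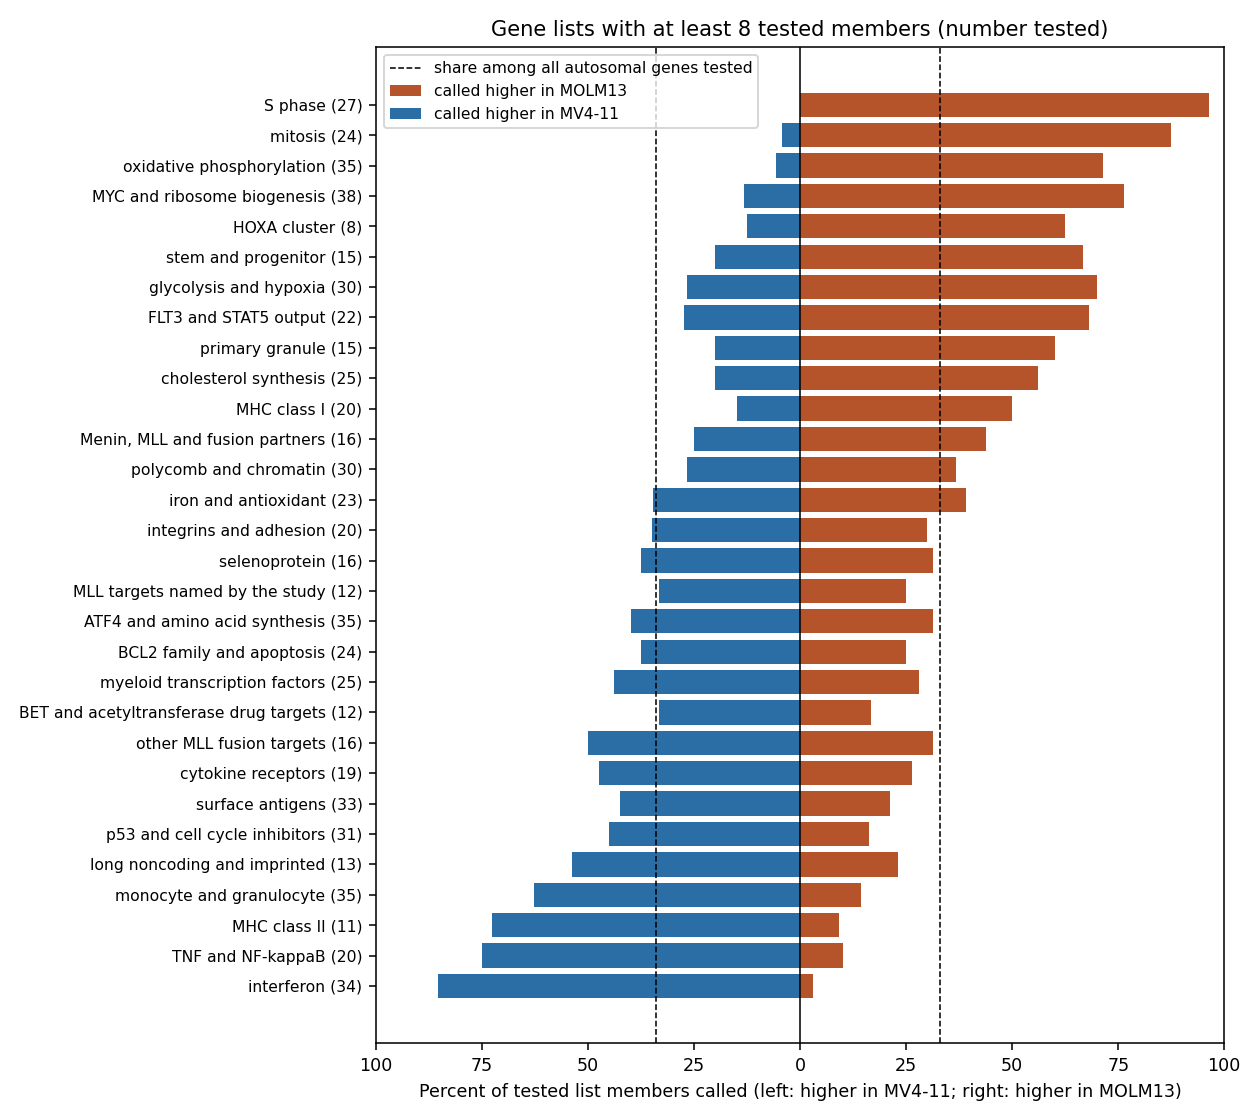
Share of the tested members of each gene list called higher in MOLM13 (orange, to the right) and higher in MV4-11 (blue, to the left), for lists with at least 8 tested members, with the number tested in brackets. Dashed lines mark the shares of all autosomal genes, 32.9% and 33.9%. S phase genes lay furthest to the MOLM13 side and interferon genes furthest to the MV4-11 side.

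Growth genes were higher in MOLM13 as a body. Of 27 tested S phase genes 26 were higher in MOLM13 and 0 in MV4-11, with a median of 1.06, against a background of 32.9% in this direction. MCM4, a subunit of the replicative helicase, was at 1206 and 1215 CPM in MOLM13 and 408 and 407 CPM in MV4-11 (1.57 ± 0.08). PCNA, the sliding clamp of DNA polymerase, was at 550 and 541 CPM against 168 and 180 CPM. CDT1, which loads the helicase, was the gene not called, at 0.25, and at 0.40 without MV4-11 control 2. Of 24 tested mitosis genes 21 were higher in MOLM13 and 1, the hyaluronan receptor HMMR, in MV4-11, with a median of 0.90. HMMR was not called without MOLM13 control 1 (-0.41 ± 0.17), and CCNB1, the mitotic cyclin, was at 210 and 216 CPM against 67.2 and 69.9 CPM.

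Of 38 tested MYC and ribosome biogenesis genes 29 were higher in MOLM13 and 5 in MV4-11, with a median of 0.88. The 5 were MAX, MXD1, MXD4, MXI1 and MGA, which are all members of the MYC network that dimerise with MAX or are MAX itself, and none of them is a ribosome biogenesis factor. MXD1 was not called without MOLM13 control 1 (-0.42 ± 0.17). TERT, the catalytic subunit of telomerase, was at 38.6 and 40.8 CPM in MOLM13 and 2.66 and 2.59 CPM in MV4-11 (3.92 ± 0.12). POLR1C, a subunit of RNA polymerases I and III, was at 69 and 69.5 CPM against 17.5 and 16.8 CPM. NCL and NPM1, abundant nucleolar proteins, were not called, and at both the MV4-11 libraries were spread, from 1524 to 2201 CPM for NCL. Their differences were 0.26 and 0.36, and 0.56 and 0.61 without MV4-11 control 1.

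Metabolic genes followed the same side with more exceptions. Of 35 tested oxidative phosphorylation genes encoded in the nucleus 25 were higher in MOLM13 and 2 in MV4-11 (median 0.50), the latter count being 1 without either MOLM13 library, and CYC1, cytochrome c1, was at 856 and 828 CPM against 260 and 313 CPM. Of 30 glycolysis and hypoxia genes 21 were higher in MOLM13 and 8 in MV4-11 (median 0.55), and without either MOLM13 library the latter count was 3. SLC16A1, the lactate carrier MCT1, was at 156 and 160 CPM against 37.5 and 36.7 CPM (2.09 ± 0.08), while HIF1A, the hypoxia factor itself, was higher in MV4-11 at 63.1 and 53.9 CPM against 28.3 and 30.7 CPM. Of 25 cholesterol synthesis genes 14 were higher in MOLM13 and 5 in MV4-11 (median 0.43), the latter count being 3 without MOLM13 control 1. The exceptions included both sterol exporters of the list. ABCA1 was at 1.08 and 1.42 CPM in MOLM13 and 18.8 and 28.3 CPM in MV4-11, and ABCG1 at 0 counts against 2 and 2.26 CPM, at least 30.4-fold higher in MV4-11.

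The ATF4 list did not lean to either side, with 11 of 35 tested genes higher in MOLM13 and 14 in MV4-11 (median -0.17). The former count was 7 without MOLM13 control 2 and 7 with no scaling factors, and the median was -0.29 without MV4-11 control 1. Among the members higher in MV4-11, CHAC1, which degrades glutathione, was at 62.4 and 75.4 CPM in MV4-11 against 4.35 and 5.48 CPM, DDIT3, the CHOP factor, at 34.2 and 27.1 CPM against 4.84 and 4.52 CPM, and SLC7A11, the cystine carrier, at 35.8 and 47 CPM against 6.9 and 7.31 CPM. Among those higher in MOLM13 were PHGDH, the entry to serine synthesis, at 200 and 196 CPM against 114 and 132 CPM and PYCR1, the last step to proline (1.23 ± 0.08). ATF4 itself was not called.

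Among iron and antioxidant genes 9 of 23 tested were higher in MOLM13 and 8 in MV4-11. The ferritin chains were higher in MV4-11, FTH1 at 877 and 660 CPM against 262 and 266 CPM and FTL at 6645 and 6459 CPM against 3622 and 3555 CPM, and TFRC, the transferrin receptor, in MOLM13 at 395 and 414 CPM against 184 and 212 CPM. Of 16 selenoprotein genes 5 were higher in MOLM13 and 6 in MV4-11, with the glutathione peroxidases GPX1 (-1.06 ± 0.11) and GPX4 (-0.66 ± 0.11) in the latter group.

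Cell cycle inhibitors held the sharpest single contrast of a tumor suppressor. CDKN2A, which encodes p16 and ARF, was at 0 counts in both MOLM13 libraries and at 98.9 and 96 CPM in MV4-11, at least 1371-fold higher in MV4-11. CDKN2B, its neighbour encoding p15, was also at 0 counts in MOLM13 and at 8.93 and 8.12 CPM in MV4-11, at least 119-fold higher there. MTAP, the adjoining methionine salvage enzyme, was present in both lines, at 20.2 and 19.4 CPM against 45 and 45.6 CPM. Of 31 tested p53 and cell cycle inhibitor genes 5 were higher in MOLM13 and 14 in MV4-11 (median -0.14), the former count being 8 without MV4-11 control 2. The median was -0.09 without MOLM13 control 2, -0.25 without MV4-11 control 1 and -0.04 without MV4-11 control 2. BTG2, which slows growth, was at 7.39 and 8.09 CPM against 38.4 and 37.1 CPM.

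Of 24 tested BCL2 family and apoptosis genes 6 were higher in MOLM13 and 9 in MV4-11. BCL2, the target of venetoclax, was not called at 153 and 164 CPM against 136 and 151 CPM, nor was MCL1. BCL2L1, which encodes BCL-XL, was -1.01 ± 0.10. BMF, a BH3-only killer, was at 16.9 and 18.2 CPM in MOLM13 and 85.1 and 81.4 CPM in MV4-11, CFLAR, the inhibitor of caspase-8, at 39.8 and 39.1 CPM against 142 and 144 CPM, and BCL2L10 had 2 counts in MOLM13 against 743, a 292-fold ratio (80.6 to 2418). BAK1, a pore-forming effector, was higher in MOLM13, at 80.4 and 78.2 CPM against 26.1 and 40.2 CPM.

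Of 30 tested Polycomb and chromatin genes 11 were higher in MOLM13 and 8 in MV4-11, the latter count being 5 and 4 without MOLM13 control 1 and 2 in turn. DNMT3B, a methyltransferase that places new DNA methylation, was at 26.4 and 27.2 CPM in MOLM13 against 8.17 and 8.02 CPM, while TET2, which removes it, was at 20.3 and 21.2 CPM against 45.8 and 49.3 CPM. Of 24 germline and testis antigens 7 were tested, 3 higher in MOLM13 and 4 in MV4-11, and the family of IGF2BP RNA-binding proteins was divided among them. IGF2BP3 had 810 counts in MOLM13 and 1 in MV4-11, a 1030-fold ratio (184 to 40721), whereas IGF2BP1 was at 1.22 and 0.959 CPM in MOLM13 and 67.5 and 77.9 CPM in MV4-11 (-6.06 ± 0.16). Of 13 tested long noncoding and imprinted genes 3 were higher in MOLM13 and 7 in MV4-11, including MIR155HG, the host of miR-155, at 3.18 and 2.74 CPM against 11.9 and 11.2 CPM.

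The widest differences were presence against absence. Taking genes under 0.5 CPM in both libraries of a line and at 5 CPM or more in both of the other, 94 were restricted to MOLM13 and 161 to MV4-11, and 25 and 68 of them had 0 counts in the lower line. PITX1, a homeobox factor of the hindlimb, was at 896 and 1024 CPM in MV4-11 and 0 counts in MOLM13, at least 13743-fold higher in MV4-11. Its neighbour EPIST, a long noncoding RNA, was at 30.4 and 44 CPM against 0 counts. Both MV4-11 libraries thus held the pair and neither MOLM13 library held a read of it. Other genes at 0 counts in MOLM13 were UNC5C, a netrin receptor, at 173 and 205 CPM in MV4-11, ADD2, a membrane skeleton protein, at 166 and 170 CPM, and HORMAD1, a meiotic chromosome protein, at 44.9 and 39.9 CPM. At 0 counts in MV4-11 were SLC7A2, a carrier of cationic amino acids, at 143 and 154 CPM in MOLM13, ZFP57, a guardian of imprints, at 45.6 and 44.3 CPM, AGAP1, a membrane traffic GTPase activator, at 43.2 and 41.8 CPM, and TWIST1, a mesenchymal factor, at 20.3 and 18.3 CPM. In OCI-AML3, the remaining line of the series, 34 of the 94 and 64 of the 161 were at 5 CPM or more in all 3 untreated libraries. Under 0.5 CPM in all 3 were 41 of the 94 and 63 of the 161. The same shares over all autosomal genes were not worked out, so these counts are description only.

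Zinc finger genes of chromosome 19 were mostly higher in MV4-11. They carry KRAB domains in large part and repress transposable elements and other genes, and they lie in tandem clusters. This set was chosen after its values were seen and is given without a test. Of 204 tested protein-coding genes whose symbols are ZNF and a number, 161 were higher in MV4-11 (78.9%) and 16 in MOLM13 (7.84%), with a median of -1.84. Among the other 854 tested genes of the chromosome 227 were higher in MV4-11 (26.6%) and 353 in MOLM13 (41.3%), with a median of 0.19. ZNF genes of the other autosomes lay between, with 105 of 208 higher in MV4-11 (50.5%) and a median of -0.39. The 204 genes summed to 2152 and 2144 CPM in MOLM13 and 4085 and 3948 CPM in MV4-11, and 42 of them had 0 counts in MOLM13 against 1 in MV4-11. Near-identical members of such clusters can exchange reads, so a single member's count is uncertain.

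The 3 members with promoters printed here were among the 15 widest differences on the MV4-11 side, and all had 0 counts in MOLM13. ZNF93 was at 46 and 35.7 CPM in MV4-11, at least 560-fold higher there, ZNF43 at 39 and 33.9 CPM, at least 506-fold, and ZNF85 at 25.2 and 21.8 CPM, at least 326-fold. The 250 bases before the RefSeq start (GRCh38.p14) are shown 5′ to 3′ on the gene's strand, with each CCAAT, the letters read by the NF-Y factor, in capitals. ZNF93 is read on the plus strand at chr19:19900696-19900945, ZNF43 on the minus strand at chr19:21836183-21836432 and ZNF85 on the plus strand at chr19:20923001-20923250.
ZNF93: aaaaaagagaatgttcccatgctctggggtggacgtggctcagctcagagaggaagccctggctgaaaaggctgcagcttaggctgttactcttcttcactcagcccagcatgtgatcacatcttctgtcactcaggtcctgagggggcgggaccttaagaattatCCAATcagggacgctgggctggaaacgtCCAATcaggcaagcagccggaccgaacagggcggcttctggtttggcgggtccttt
ZNF43: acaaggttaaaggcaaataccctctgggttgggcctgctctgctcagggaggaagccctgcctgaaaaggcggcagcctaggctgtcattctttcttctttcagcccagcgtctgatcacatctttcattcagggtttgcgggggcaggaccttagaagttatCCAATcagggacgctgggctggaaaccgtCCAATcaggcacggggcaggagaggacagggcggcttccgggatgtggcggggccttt
ZNF85: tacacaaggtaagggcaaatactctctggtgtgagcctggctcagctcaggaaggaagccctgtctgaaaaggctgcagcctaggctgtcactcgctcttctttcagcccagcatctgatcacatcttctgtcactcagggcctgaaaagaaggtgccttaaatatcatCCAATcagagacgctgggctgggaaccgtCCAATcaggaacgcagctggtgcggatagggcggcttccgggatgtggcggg

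Each of these promoters held CCAAT 2 times, and the longest run of letters that all 3 share is gacgctgggctgg. Among the 10124 tested genes matched to a RefSeq promoter this run was found in 9, of which 8 are ZNF genes of chromosome 19 (ZNF43, ZNF85, ZNF91, ZNF93, ZNF100, ZNF257, ZNF486 and ZNF737) and the remaining gene is ZNF273, and all 9 were called higher in MV4-11. The run was picked from ZNF93, ZNF43 and ZNF85, which are 3 of these 9 genes and had 0 counts in MOLM13. It is a description of duplicated genes. Of all 204 tested ZNF genes of chromosome 19, 78.9% were higher in MV4-11, so the 9 calls do not tie the run to the level of a gene. Letters were then counted on both strands in 300 bases around the start, for genes at least 4-fold apart. CCAAT was in 36.0% of all promoters, 33.6% of the 467 of genes higher in MOLM13 and 36.3% of the 945 of genes higher in MV4-11, and in 48.8% of the 84 chromosome 19 ZNF promoters among the latter. CACGTG, the E-box letters read by MYC and USF, was in 9.93%, 9.85% and 5.82%, and in 1.19% of the ZNF promoters. TATAAA, the TATA box, was in 6.05%, 7.49% and 8.57%, TGACTCA, read by AP-1, in 3.26%, 4.93% and 4.23%, and TGTGGT, read by RUNX factors, in 1012 of the 10124, 48 of the 467 and 123 of the 945. GAGGAAGT, read by PU.1, was in 2.79%, 2.36% and 2.86%, and TTGCGCAA, read by C/EBP factors, in 0.198%, 0% and 0.106%. A match is no binding site, and a window without one says nothing of a factor.

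**Figure D3:**
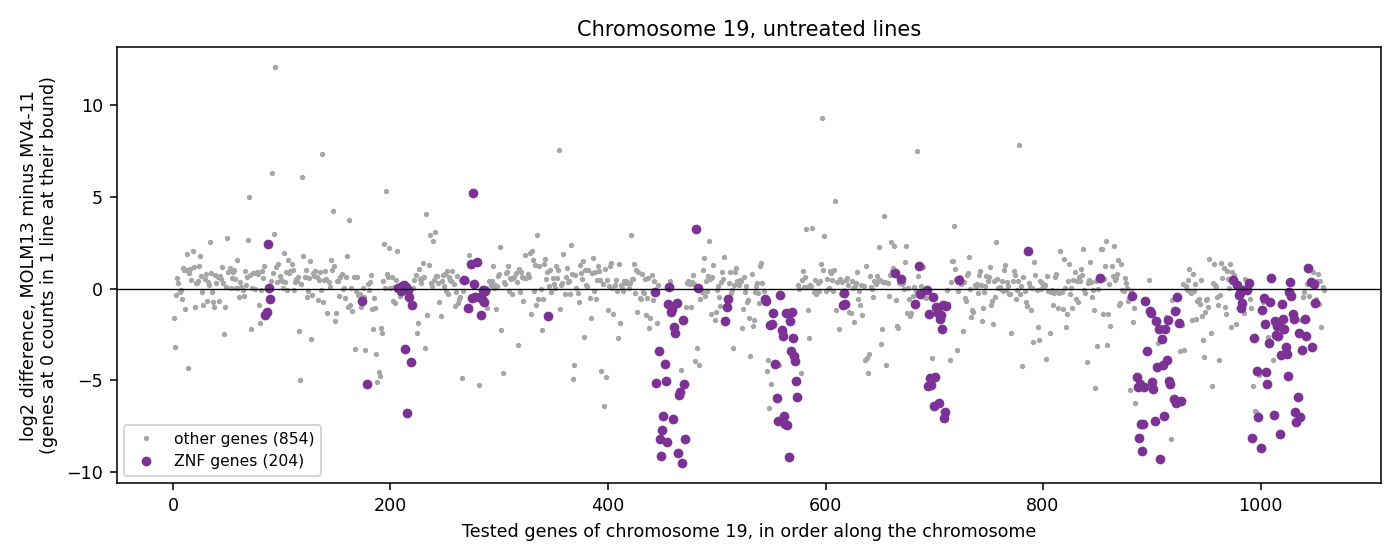
Log2 difference (MOLM13 minus MV4-11) of the 1058 tested genes of chromosome 19 in their order along the chromosome, with the 204 ZNF genes in purple and the 854 others in grey. Genes at 0 counts in 1 line are drawn at their bound. The ZNF genes sit in several dense groups that reach far below 0, while the genes between them are centred slightly above it.

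Runs of neighbouring genes that differed in 1 direction were listed. In 243 places at least 3 neighbouring tested genes were all called in 1 direction at 2-fold or more, 166 of them higher in MV4-11 and 77 higher in MOLM13. How many such runs the shares of called genes would give by themselves was not worked out. Wide differences were also more frequent on the MV4-11 side, with 11.0% of autosomal genes at least 4-fold higher there and 5.20% in MOLM13. The number of runs and its split therefore say nothing of neighbourhood. The longest, on chromosome 19 from 52269587 to 53216102, held 21 genes from ZNF766 to ZNF818P with a median of -4.18. Of the 12 runs with 8 genes or more, 9 were on chromosome 19. On chromosome 9 a run of 7 genes from 20999509 to 25678444 held CDKN2A and CDKN2B with HACD4, KLHL9, MTAP, CDKN2B-AS1 and TUSC1, with a median of -2.39, and HACD4, a fatty acid elongation enzyme, was at 6.16 and 5.48 CPM in MOLM13 against 32.6 and 28.6 CPM. On chromosome 11 a run of 7 genes from 60056665 to 60417756 was made of MS4A3 and its relatives, with MS4A6A at 43.3 and 43.6 CPM in MOLM13 against 306 and 252 CPM. A run of 10 genes on chromosome 7 was the T cell receptor gamma locus, where TRGC1, a constant segment, was at 0.881 and 0.594 CPM in MOLM13 and 272 and 210 CPM in MV4-11. Its near-identical copy TRGC2 makes the division between them uncertain. On chromosome 14 a run of 3 genes higher in MOLM13 held segments of the T cell receptor delta and alpha loci with an antisense RNA, with a median of 6.43 when the gene at 0 counts is held at its bound, and TRAC, the alpha constant segment, was at 18.3 and 17.8 CPM in MOLM13 against 0.19 and 0.214 CPM. On chromosome 13 PROSER1 was at 0 counts in MOLM13 and 62.3 and 52.4 CPM in MV4-11, at least 794-fold higher there, and its neighbour NHLRC3 at 0 counts against 11.3 and 12.8 CPM, at least 172-fold, while COG6, close by, was higher in MOLM13 at 29.3 and 30.6 CPM against 14.2 and 15.9 CPM. Where genes overlap or run antisense, as CDKN2B-AS1 does, the strand setting of the counting is not known, and the counts of such genes are uncertain.

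The longest runs higher in MOLM13 were shorter. On chromosome 8 a run of 7 genes from 144266453 to 144393242 had a median of 1.55, and there HSF1, the heat shock factor, was at 339 and 334 CPM in MOLM13 against 151 and 172 CPM. On chromosome 6 a run of 6 genes from 30914238 to 31272092 reached from VARS2 to HLA-C, with a median of 1.42. A run of 5 genes on the same chromosome held ELOVL5, a fatty acid elongase (1.20 ± 0.08), and GCLC, which makes glutathione's precursor (1.16 ± 0.09).

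Whole chromosomes were also shifted. The median log2 difference was 0.47 on chromosome 8, 0.39 on chromosome 6 and 0.34 on chromosome 13, against -0.02 over all autosomes. On chromosome 8 53% of tested genes were higher in MOLM13 and 18.3% in MV4-11, on chromosome 6 50.1% and 22.4%, and on chromosome 13 47.7% and 20.8%. Among the named genes, MYC, NDUFB9, CYC1 and HSF1 are on chromosome 8 and HLA-C, BAK1, ELOVL5 and GCLC on chromosome 6. DACH1 is on chromosome 13. The differences of these and other named genes there stand beside that of their chromosome. DNA copy number was not measured here, and its part was not tested.

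**Figure D4:**
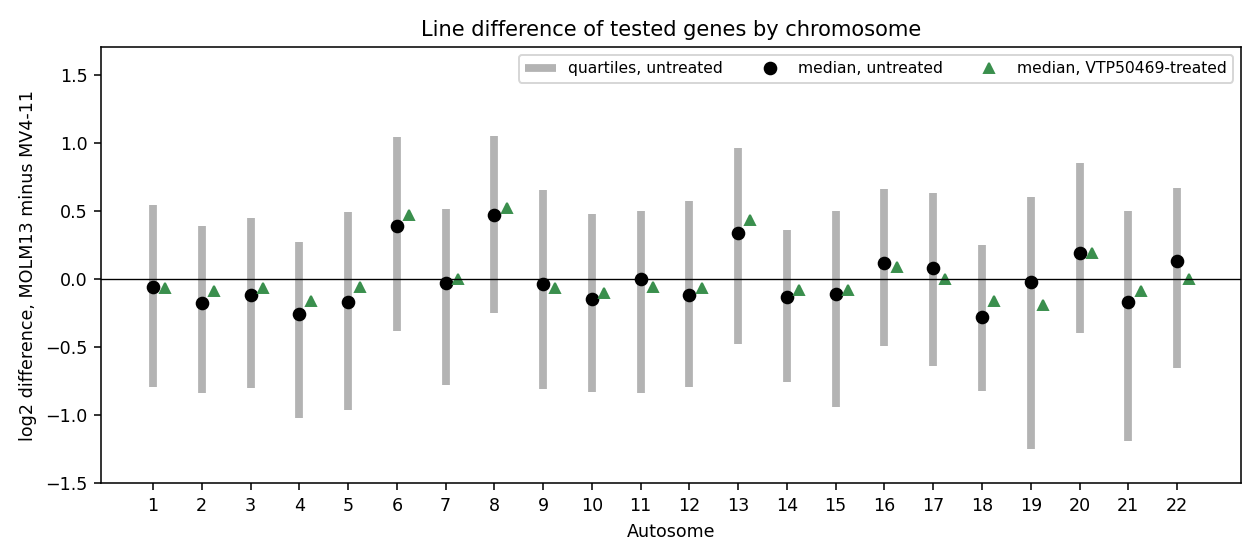
Median log2 difference (MOLM13 minus MV4-11) of the tested genes of each autosome in untreated cells (black circles, with grey bars from the 25th to the 75th percentile) and in VTP50469-treated cells (green triangles). Chromosomes 6, 8 and 13 stood highest in both, at 0.39, 0.47 and 0.34 in untreated cells.

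The comparison was repeated in libraries that had no part in it. The Menin inhibitor VTP50469, also called SNDX-50469, was given to MOLM13 at 500 nM and to MV4-11 at 1000 nM, so the lines differed in dose as well, with 2 libraries each. In these 13849 autosomal genes were tested, of which 4435 were called higher in MOLM13 (32.0%) and 4885 higher in MV4-11 (35.3%). Of the 4334 genes called higher in untreated MOLM13 and tested again, 3501 were called the same way (80.8%) and 51 the opposite way. Of the 4421 called higher in untreated MV4-11, 3609 were called the same way (81.6%) and 25 the opposite way. Genes at least 4-fold apart were steadier, with 2061 of 2067 keeping their sign and 2025 called the same way. On chromosome 19, 151 of 203 ZNF genes were higher in treated MV4-11 and 16 in treated MOLM13.

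Several genes of the MLL program differed between the lines in 1 treatment and not in the other. HOXA9 differed by -0.45 ± 0.10 in untreated cells and by 0.10 ± 0.12 in treated cells, where it was not called. The shift between the 2 comparisons was 0.57 ± 0.16 (adjusted p = 0.0416, edgeR's quasi-likelihood test in a fit of the 8 libraries). CDK6 went from -1.26 ± 0.09 to -0.02 ± 0.17, a shift of 1.246 ± 0.22 (adjusted p = 0.00669). BCL2, not called in untreated cells, differed by 2.21 ± 0.11 in treated cells, a shift of 2.08 ± 0.15 (adjusted p = 2.86e-05). MEIS1 shifted the other way, by -0.73. Over the autosomes, 1452 of 14037 genes had a line difference that itself differed between treated and untreated cells at an adjusted p below 0.05 in that fit, and dose, drug and line cannot be told apart in it.

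**Figure D5:**
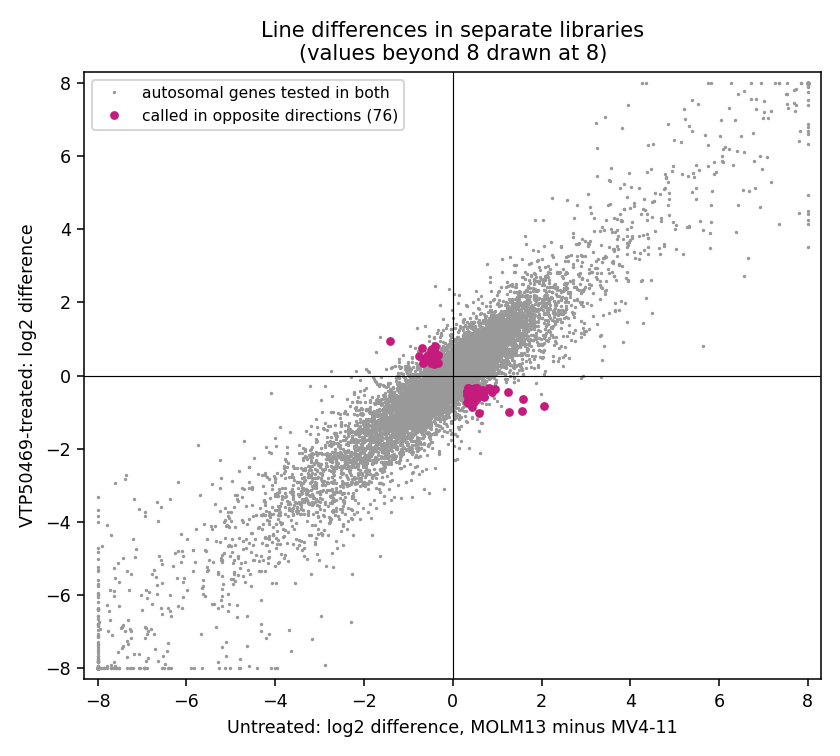
Log2 difference between the lines in untreated cells (horizontal axis) against the same in VTP50469-treated cells (vertical axis) for autosomal genes tested in both, with values beyond 8 drawn at 8. The 76 genes called in opposite directions (magenta) lie within a few units of 0, and nearly all wide differences kept their side.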

How the data were processed

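Bulk RNA sequencing was run on total RNA of AML cells, and whether poly(A) RNA was selected is not stated. The authors deposited whole-number read counts per Ensembl gene, not normalized, for 58037 gene IDs in 18 libraries. The submitters' processing notes name STAR and hg38 while the study's methods describe TopHat2 and Cufflinks2, so the aligner is unsure, and no source used here names the counting program, strand setting or annotation. Symbols were matched to RefSeq positions on GRCh38.p14 for 38632 IDs by symbol and 294 by synonym, and sex-linked, mitochondrial and unplaced genes were tested but are not reported. Counts were fitted with edgeR 4.0.16 (R 4.3.3, limma 3.58.1), filterByExpr, TMM, glmQLFit and glmQLFTest on the 4 libraries, and standard errors are the log2 difference over the square root of F. Alternatives (DESeq2 1.42.0, limma-voom, other scalings, filters and library sets, and each library left out) are given under the dependence on processing. On simulated counts for this comparison over 14356 genes, 44.4% of 1.5-fold, 74.5% of 2-fold and 93.2% of 4-fold changes were recovered with 12 false calls. Few genes were changed in the simulation and both lines were given the same spread, unlike these data, so the rates need not hold here. Genes were named if they were members of 38 gene lists, among the 15 widest called differences in each direction, or in runs of neighbours. The compared lines, lists and rules were chosen with earlier results of these data known. Intervals and floors cover counting error only, since PCR copies are not independent molecules. The replicate libraries differed by more than sampling noise, with a chi-square per degree of freedom of 2.43 in MOLM13 and 43.9 in MV4-11.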

Additional observations from a re-analysis of the deposited data

Results flagged for a closer look

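The line difference of 46 of 194 named genes, counting only those with over 3 counts in each line, itself differed between VTP50469-treated and untreated libraries, by edgeR's quasi-likelihood test in 1 fit of the 8 libraries at an adjusted p below 0.05, against 1452 of the 14037 autosomal genes in that fit. The named genes were chosen with their values known. The shift given for each is the log2 difference of the lines in treated minus that in untreated cells, so a positive shift moves the gene towards MOLM13. MOLM13 received 500 nM and MV4-11 1000 nM, and dose, drug response and line cannot be told apart in these shifts.

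Of the 46, 8 were called in opposite directions in the 2 comparisons. CD86, a costimulatory ligand, was at 5.14 and 5.94 CPM in untreated MOLM13 against 1.43 and 2.17 CPM in untreated MV4-11, and its difference went from 1.59 to -0.63, a shift of -2.20 ± 0.26 (adjusted p = 0.000747). PMAIP1, which encodes the BH3-only protein NOXA, went from -0.46 to 0.72 (1.20 ± 0.21), and CCDC26, a long noncoding RNA near MYC, from -0.76 to 0.53 (1.30 ± 0.18). IGF2BP2 went from -0.47 to 0.49 (0.98 ± 0.14). LGALS3, a galectin of macrophages, went from 0.71 to -0.60 (-1.30 ± 0.26), GPR183, an oxysterol receptor, from 0.69 to -0.56 (-1.24 ± 0.25), IL4R from 0.50 to -0.34 (-0.82 ± 0.15) and CDKN1A, the p21 inhibitor, from 0.32 to -0.41 (-0.72 ± 0.15). Without MOLM13 control 1 the untreated differences of PMAIP1, GPR183, IGF2BP2 and CDKN1A were -0.37, 0.56, -0.45 and 0.36. Without MOLM13 control 2 that of LGALS3 was 0.68. They were not called in those fits, where the spread came from the MV4-11 pair alone. CDKN1A, at the fold limit of 0.32, lost its untreated call under 9 alternatives, among them no scaling factors, upper quartiles and quantile normalization. Its change of direction thus rests on the scaling. GPR183 also lost its call under DESeq2, with no scaling factors and in a test against the fold limit (glmTreat), and PMAIP1 in the latter. Genes called in opposite directions were 76 over the autosomes, and for them a shift follows largely from how they were chosen.

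The others are given in alphabetical order by the sign of their shift. Towards MOLM13 these were BCL2 (2.08), BMI1 (0.63), CCND2 (0.73), CDK6 (1.246), CHAC1 (1.16), DUSP6 (1.67), HOXA13 (1.38), HOXA9 (0.57), ICAM1 (1.08), IL1RAP (1.20), LYZ (0.90), MEF2C (1.47), MIR155HG (2.16), MPO (1.47), MS4A3 (1.15), MS4A6A (0.58), MTAP (0.65), MYB (0.77), MYC (0.59), NCL (0.78), PHGDH (0.76), PYCR1 (1.02), RUNX2 (1.06), SLC16A1 (0.88), TERT (0.98), TNF (0.64) and TRGC1 (1.80). Towards MV4-11 they were CDKN2C (-1.07), CEBPA (-1.28), CFD (-0.70), ERAP2 (-0.92), GPX1 (-0.76), IRF5 (-0.60), MEIS1 (-0.73), MLLT3 (-1.64), MXD4 (-0.62), S100A9 (-1.42) and ZFP36 (-0.89). Members of 1 program fell on both sides, HOXA9, CDK6 and MEF2C shifting towards MOLM13 and MEIS1 and MLLT3 towards MV4-11.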

How the results depend on the processing

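Leaving out each library in turn gave 7178 to 9351 autosomal calls in untreated cells, 7356 to 9706 in treated cells, and 148 to 167 chromosome 19 ZNF genes higher in MV4-11. Every alternative tried kept these counts within 1.5 times their main values. No named gene reversed, and 154 of 176 named calls held under every alternative. Those lost under at least 1 were 22, namely AFF1, CD14, CDKN1A, CREBBP, EP300, GPR183, HMMR, HOXA9, IGF2BP2, ITGAM, KAT6B, KAT7, LGALS3, MEIS2, MX1, MXD1, OAS1, PBX2, PBX4, PMAIP1, TREM1 and USP18, 21 of them without MOLM13 control 1 and 14 without MOLM13 control 2. Without a MOLM13 library the spread came from the MV4-11 pair alone. DESeq2 lost 11 named calls and glmTreat, which tests against the fold limit, 13. Of calls, 49.3% were higher in MOLM13, and 40.5% with no scaling factors.

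The excess of a chromosome's median over that of all autosomal genes moved by more than its replicate spread under DESeq2, no filter and limma-voom with quantile normalization, at 0.38, 0.38 and 0.44 for chromosome 6, 0.46, 0.44 and 0.41 for chromosome 8, and 0.29, 0.31 and 0.38 for chromosome 13. All 18 libraries in 1 fit gave 0.37 and 0.45 for chromosomes 6 and 8, and the 12 MOLM13 and MV4-11 libraries in 1 fit 0.37 for chromosome 13. Leaving out each library gave 0.4 to 0.43, 0.48 to 0.51 and 0.37 to 0.44. The cause was not tested. The share of promoters with TTGCGCAA among genes higher in MV4-11 was 0% under limma-voom with quantile normalization, and 0% to 0.106% with each library left out. A line left with 1 library was assumed to vary like the other.

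The lines share replicate numbers in the sample titles, which were used here, but the descriptions number the MV4-11 controls 2 and 3, leaving 1 shared number and no block to fit, so the following rests on the titles. With the replicate number as a block 8972 untreated and 9372 treated genes were called, no call of a named gene was lost and 3 were gained, and the deviations of same-numbered libraries had a correlation of 0.0498 across genes. With 2 libraries a line, small differences cannot be resolved, and a floor of 3 counts bounds each fold against 0.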
